A study of Mus musculus with 34 samples.

Results

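The genes described here are 9 cardiac potassium channel genes, Kcnj2, Kcnj3, Kcnj11, Kcnd2, Kcnd3, Kcnip2, Kcna5, Kcnq1 and Kcnh2, chosen by gene symbol from 2 tables of mouse left ventricle (LV) mRNA. They are 9 of the 14552 genes listed in the table of uninjected hearts and 9 of the 17406 in the table of modRNA-injected hearts. All 9 passed the filter on low values in both tables, set at a mean of 1 CPM, the read count scaled to library depth. All mice were CFW mice, and their age is not given in the sources used here. The uninjected table holds LV of 3 sham mice, 3 mice at 4 h and 4 mice at 24 h after myocardial infarction (MI), which was made by tying off the left anterior descending artery for good. The tissue was the ischemic area, or its equivalent in sham hearts, and the sources conflict on these sham mice, since the labels give them no operation whereas the study calls them sham-operated. The injected table holds 2 sham-operated mice without injection, labelled 4 h, and hearts with MI that were injected into the border zone right after ligation with a modRNA (modified mRNA) labelled AC or Luc. Luc is luciferase, the labels do not spell out AC, and the groups held 4 mice each at 4 h, 3 each at 24 h and 4 each at 48 h. The tables have their own sham mice and were normalized separately, so no test crosses them.

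Cardiac potassium channels carry the outward current that ends the action potential. Kcnj genes encode inward rectifiers that hold the resting potential or open with G proteins or low ATP. Kcnd genes encode the pores of the fast transient outward current, and Kcnip2 the KChIP2 subunit that brings them to the membrane. Kcna5, Kcnq1 and Kcnh2 encode pores of delayed rectifiers. Reduced transient outward current is a known feature of diseased ventricle, and Kcnj3 and Kcna5 are known as atrial-enriched in larger mammals.

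Depth was estimated by dividing the summed values of a library by its value of 1 read, which gave between 12554489 and 18954487 reads in the uninjected libraries and between 17091513 and 22192765 in the injected ones. The lowest member value, Kcnd2 in MI 24 h library C, corresponded to about 53.0 reads. The markers of heart muscle were above 0 in every group, as all 12 cardiomyocyte genes were listed with none at 0. In the injected hearts at 24 and 48 h, however, the labelled LV tissue also held transcripts of atrial muscle. The atrial light chain Myl7 was between 0.0326 and 0.0952 CPM in sham and at most 0.147 CPM at 4 h, but between 17.0 and 61.3 CPM in Luc 24 h, 9.05 and 112 CPM in AC 24 h, 1.49 and 20.6 CPM in Luc 48 h and 8.84 and 24.8 CPM in AC 48 h. The share of these transcripts in any channel difference was not tested. The titles also number the injected libraries in separate sets, with sham and 4 h together, 48 h alone and 24 h without numbers. The 24 h titles alone also carry the letters Br, which no source used here explains, so whether they mark another tissue or preparation is not known. Differences between the Luc groups at 24 or 48 h and sham cannot be told apart from a difference between those sets.

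The promoter windows below are shown because 4 of these genes were among those lower at 24 h in the uninjected hearts, whereas Kcna5 was not called. RefSeq windows on GRCm38.p6 were found for 7 of the 9 genes, and the 5 that overlap no annotated exon are printed, each as the 250 bases before a start, 5′ to 3′ on the gene's strand. Capitals mark GC boxes, GGGCGG or its reverse complement CCGCCC. The Kcnh2 window lies before an internal start within the gene, and the Kcnd2 start lies upstream of the gene body in the deposited table.
Kcnj2, chr11:111065914-111066163, plus strand: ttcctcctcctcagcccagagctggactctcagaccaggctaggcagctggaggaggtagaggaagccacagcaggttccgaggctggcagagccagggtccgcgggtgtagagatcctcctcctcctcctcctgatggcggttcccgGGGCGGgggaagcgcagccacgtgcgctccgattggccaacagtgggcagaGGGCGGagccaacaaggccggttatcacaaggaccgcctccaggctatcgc
Kcnip2, chr19:45816064-45816313, minus strand: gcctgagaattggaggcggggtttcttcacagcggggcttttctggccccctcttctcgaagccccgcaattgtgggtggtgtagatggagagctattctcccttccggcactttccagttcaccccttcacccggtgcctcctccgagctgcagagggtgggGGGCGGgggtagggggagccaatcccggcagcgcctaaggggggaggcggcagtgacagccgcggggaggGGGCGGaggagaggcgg
Kcnd2, chr6:21215096-21215345, plus strand: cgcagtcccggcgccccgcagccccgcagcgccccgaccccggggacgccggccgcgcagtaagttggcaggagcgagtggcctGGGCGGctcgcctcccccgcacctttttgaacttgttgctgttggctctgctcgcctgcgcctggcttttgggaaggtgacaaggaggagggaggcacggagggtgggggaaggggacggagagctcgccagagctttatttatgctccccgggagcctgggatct
Kcnh2, chr5:24329592-24329841, minus strand: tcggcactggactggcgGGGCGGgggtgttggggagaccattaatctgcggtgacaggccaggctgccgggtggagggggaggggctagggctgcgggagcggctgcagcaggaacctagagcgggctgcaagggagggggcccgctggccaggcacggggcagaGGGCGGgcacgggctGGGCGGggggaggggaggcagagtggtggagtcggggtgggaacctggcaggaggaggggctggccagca
Kcna5, chr6:126535556-126535805, minus strand: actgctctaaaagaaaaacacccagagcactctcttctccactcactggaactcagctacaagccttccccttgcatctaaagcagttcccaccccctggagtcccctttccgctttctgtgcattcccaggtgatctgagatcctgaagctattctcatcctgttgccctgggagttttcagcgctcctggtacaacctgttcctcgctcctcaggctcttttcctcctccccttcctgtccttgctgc
Kcnj2 and Kcnip2 held 2 GC boxes each, Kcnd2 1 and Kcnh2 3, and none was in the Kcna5 window. The GC content was 53.2% for Kcna5, 65.6% for Kcnj2, 66.8% for Kcnip2, 68.8% for Kcnd2 and 73.6% for Kcnh2. Of all 32851 windows in the table, 32.7% held this motif, and the median GC content was 52.4%. The windows of Kcnj3 and Kcnd3, not printed, held none, so genes with and without the motif are among those lower at 24 h. These counts describe letters and no binding.

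In sham hearts the members differed widely in level per length. Kcnip2 stood highest at 61.7 ± 3.70 CPM per kb of merged exon (SD, n = 3), followed by Kcnj11 at 36.9 ± 3.89, Kcnh2 at 12.9 ± 1.76 and Kcnj3 at 10.0 ± 0.891 CPM per kb. Kcnj2 followed at 9.63 ± 1.70 CPM per kb, Kcnq1 at 8.15 ± 1.11, Kcnd2 at 6.09 ± 0.713, Kcna5 at 4.69 ± 0.918 and Kcnd3 at 1.90 ± 0.0812. The library ranges of neighbours in this order met from Kcnj3 down to Kcna5 and did not meet elsewhere. At 24 h post-MI the order of these levels changed. Kcnj11 and Kcnip2, now at 11.3 ± 6.24 and 10.3 ± 3.70 CPM per kb (n = 4), met each other in range, and Kcna5 had moved from rank 8 to rank 3 at 4.98 ± 1.58. Its range met those of Kcnj2, Kcnq1 and Kcnh2 below it, so this rank is not clear, and its own level was close to that in sham. Kcnd2 was last at 0.796 ± 0.334 CPM per kb, where its range met that of Kcnd3.

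To follow the channels through the first day of infarction, the uninjected MI groups were compared with sham. At 24 h, 8 of the 9 genes were lower in the limma test (q value, the Benjamini-Hochberg adjusted p, under 0.05) and none higher. In this comparison 30.3% of all 12487 genes tested were called lower. All 9 but Kcna5 were also lower at 24 h than at 4 h, where 26.7% of all genes were. Every library at 24 h lay below every sham library for 8 members, a separation that 28.7% of all genes tested showed. The count of 8 called stayed with each library left out in turn. Both comparisons with sham share the 3 sham libraries. At 4 h against sham only Kcnj2 was called, where 0.817% of all genes were called lower. The median log2 difference of the members was -0.22 at 4 h and -1.80 at 24 h, against -0.03 and 0.04 over all genes tested. Values in log2 are differences of log2(CPM + 1), which understate changes of low genes. Because these are bulk samples, fewer cells of a type and less RNA per cell cannot be told apart.

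**Figure D1:**
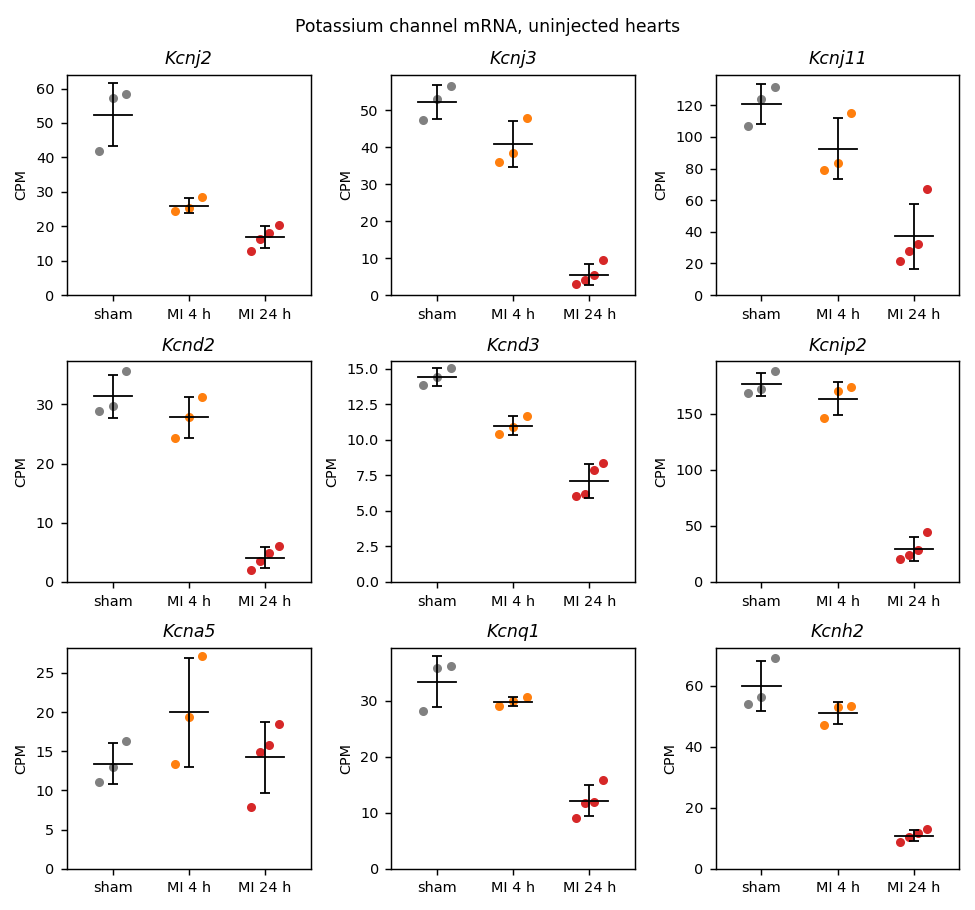
CPM of each potassium channel gene in each library of the uninjected hearts (points) with the group mean and SD (bars), for 3 sham, 3 MI 4 h and 4 MI 24 h libraries. For every gene except Kcna5, all MI 24 h points lie under all sham points; Kcnj2 at 4 h lies between 24.4 and 28.4 CPM.

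Among the inward rectifiers, Kcnj2 (chr11:111066164-111076825, mm10, plus strand), which encodes Kir2.1 of the resting inward rectifier current, was the member called at 4 h. Its 4 h difference was not tested against those of the other members. Its values were 41.8, 57.1 and 58.3 CPM in sham, 28.4, 24.4 and 25.2 CPM at 4 h, and 18.1, 12.9, 20.4 and 16.2 CPM at 24 h. The 3 groups did not overlap, and each step was downward. Kcnj2 fell by 0.97 on the log2 scale at 4 h (SE 0.17, q = 0.012), to 49.6% ± 9.62 of the sham mean, and by 1.58 at 24 h (SE 0.16, q = 7e-06), to 32.3% ± 8.28. Percentages are ratios of mean CPM with the SD propagated from both groups. The 4 h call was lost without MI 4 h library D, sham library H or sham library I, with q = 0.063, 0.078 and 0.068 and log2 differences of -0.93, -0.90 and -0.89. This call was also lost when the replicate letters were fitted as a block.

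Kcnj3 (chr2:55435970-55598145, plus strand), the GIRK1 subunit of the acetylcholine-gated channel, had the largest difference of the 9 genes at 24 h. Sham libraries held 47.4, 56.6 and 53.2 CPM, 4 h libraries 36.1, 38.6 and 48.0 CPM, and 24 h libraries 3.11, 5.38, 9.54 and 4.19 CPM. At 4 h 1 library reached into the sham range, and at 24 h all were far below it. Kcnj3 fell by 3.11 (SE 0.25, q = 1.8e-06), to 10.6% ± 5.46 of sham, while the 4 h difference was -0.36 (SE 0.27, q = 0.56). Kcnj5, its GIRK4 partner, fell as well, from 97.4 ± 12.4 CPM (SD, n = 3) in sham to 34.4 ± 15.1 CPM (n = 4), by 1.55 on the log2 scale (SE 0.26, q = 0.00027).

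Kcnj11 (chr7:46097123-46100764, minus strand) encodes the Kir6.2 pore of the ATP-sensitive channel. Its values were 124, 107 and 132 CPM in sham, 83.6, 79.3 and 115 CPM at 4 h, and 21.6, 27.8, 67.1 and 32.0 CPM at 24 h. Library G, at 67.1 CPM, stood well above the other 24 h libraries but below every sham library. Kcnj11 fell by 1.80 at 24 h (SE 0.30, q = 0.00027), to 30.7% ± 17.2 of sham, and differed by -0.40 at 4 h (SE 0.32, q = 0.59). The sulfonylurea receptor subunits that surround this pore fell in the same comparison. Abcc8 (SUR1) fell by 2.18 (SE 0.21, q = 5.4e-06) and Abcc9 (SUR2) by 2.16 (SE 0.22, q = 7.4e-06).

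Of the genes of the fast transient outward current, Kcnd2 and Kcnip2 had larger falls at 24 h than Kcnd3. Kcnd2 (chr6:21216109-21729805, plus strand), the Kv4.2 pore, was at 28.8, 35.6 and 29.7 CPM in sham and at 27.9, 24.3 and 31.2 CPM at 4 h. At 24 h it was at 1.99, 6.01, 4.83 and 3.58 CPM, all under the other groups, which overlapped each other. Kcnd2 fell by 2.73 (SE 0.24, q = 2.8e-06), to 13.1% ± 5.70 of sham, and differed by -0.17 at 4 h (SE 0.25, q = 0.80).

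Kcnd3 (chr3:105452330-105674002, plus strand), the Kv4.3 pore, kept more of its level than Kcnd2. Sham libraries held 14.4, 15.0 and 13.8 CPM, 4 h libraries 10.4, 10.9 and 11.7 CPM, and 24 h libraries 6.04, 6.16, 8.34 and 7.88 CPM. The 3 groups did not overlap. Kcnd3 fell by 0.94 at 24 h (SE 0.12, q = 4.8e-05), to 49.3% ± 8.41 of sham, and its 4 h difference of -0.36 (SE 0.13) missed the threshold at q = 0.20. An antisense gene, Kcnd3os, is listed in the injected table, and counting by strand is not stated for these files, so reads of this pair cannot be told apart.

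Kcnip2 (chr19:45792346-45816063, minus strand), the KChIP2 subunit, fell together with its Kv4.2 partner. Its values were 172, 188 and 168 CPM in sham and 174, 146 and 170 CPM at 4 h, which overlapped. At 24 h they were 20.7, 28.2, 44.4 and 23.9 CPM, all far below, with library G again the highest. Kcnip2 fell by 2.61 (SE 0.20, q = 1.4e-06), to 16.6% ± 6.07 of sham, while the 4 h difference was -0.11 (SE 0.22, q = 0.86).

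Of the delayed rectifiers, Kcnh2 (chr5:24319589-24351604, minus strand), the ERG pore of the rapid component, showed the largest fall. It was at 56.3, 54.2 and 69.3 CPM in sham, 53.1, 47.1 and 53.4 CPM at 4 h, and 10.4, 12.9, 11.8 and 8.64 CPM at 24 h. The 4 h libraries lay just under the lowest sham library, and the 24 h libraries lay under a narrow ceiling of 12.9 CPM. Kcnh2 fell by 2.36 (SE 0.14, q = 2.3e-07), to 18.2% ± 3.94 of sham, and differed by -0.22 at 4 h (SE 0.14, q = 0.50).

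Kcnq1 (chr7:143107254-143427042, plus strand), the pore of the slow component, was at 28.1, 36.1 and 35.9 CPM in sham, 29.0, 29.9 and 30.6 CPM at 4 h, and 11.9, 9.13, 15.9 and 11.8 CPM at 24 h. Only the 24 h libraries were clear of sham. Kcnq1 fell by 1.40 (SE 0.16, q = 1.5e-05), to 36.4% ± 9.69 of sham, and differed by -0.15 at 4 h (SE 0.17, q = 0.72). The antisense RNA Kcnq1ot1 lies within Kcnq1 and stood between 1.05 and 2.30 CPM in the uninjected libraries. Since counting by strand is not stated, reads of this pair cannot be told apart.

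Kcna5 (chr6:126532551-126535555, minus strand), the Kv1.5 pore of the ultrarapid component, was the member that was not called at either time. Its values were 16.3, 13.0 and 11.1 CPM in sham, 19.4, 27.2 and 13.4 CPM at 4 h, and 15.8, 18.4, 14.9 and 7.83 CPM at 24 h. The 3 groups overlapped, and the spread at 4 h was wide. The log2 difference was 0.50 at 4 h (SE 0.30, q = 0.44) and 0.04 at 24 h (SE 0.28, q = 0.92), with a 95% interval at 24 h from -0.57 to 0.65. The sign of the 24 h difference turned under several alternatives, so no direction is given.

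The members' patterns over the 10 uninjected libraries were alike except for Kcna5. The Pearson r of log2(CPM + 1) between pairs without Kcna5 ranged from 0.775 for Kcnd2 and Kcnj2 to 0.995 for Kcnip2 and Kcnj3, and pairs with Kcna5 ranged from -0.128 for Kcnj2 to 0.240 for Kcnh2. These values describe 10 libraries that share the step from sham and 4 h to 24 h, and many genes share it. Among genes that averaged 10 CPM or more, those most like Kcnj3 were Fndc5, Cpeb3 and Sobp, with r between 0.998 and 0.999. Those most like Kcnip2 were Asb10, Ank and Crot, with r between 0.997 and 0.998, and those most like Kcnh2 were Crhr2, Fbxo32 and Plxnb1, at 0.993 to 0.994. Those most like Kcnj11 were Tmem246, Cmtm4 and Lonp2 at 0.992 to 0.993, those most like Kcnd2 Actr3b, Pcmtd1 and Oxr1 at 0.993 to 0.994, and those most like Kcnd3 Tmem250-ps, Ppt2 and Mfsd8 at 0.993 to 0.994. Kcnq1 was close to Copg2 and Gab1 at 0.990 to 0.991, and Kcnj2 to AW549877, Rsbn1l and Arhgef15 at 0.962 to 0.969. Kcna5 had no such close match, with Timp3, Elf2 and Slc43a3 at 0.858 to 0.875.

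Cell type markers moved with the 24 h falls. Of the 12 cardiomyocyte genes, 8 were lower and none higher, and their summed level was between 27959 and 44285 CPM at 24 h against 56823 to 61110 CPM in sham and 57636 to 62594 CPM at 4 h. Their median log2 difference at 24 h was -0.62, against -1.80 for the 9 channels. All 10 neutrophil and monocyte genes were higher, with sums of 382 to 2131 CPM against 3.86 to 5.44 CPM in sham. Library G, which kept the most Kcnj2, Kcnj3, Kcnj11, Kcnd3, Kcnip2 and Kcnq1 at 24 h, had the highest cardiomyocyte sum of its group, 44285 CPM. Its neutrophil and monocyte sum, 382 CPM, was the lowest. Kcnd2, Kcnh2 and Kcna5 were instead highest in library D, where these sums were 34790 and 1896 CPM. Of all 12487 genes tested at 24 h, 4449 were called higher and 3787 lower. Of the other lists at 24 h, macrophage genes counted 2 of 8 higher and 0 lower, endothelial 3 higher and 2 lower of 8, fibroblast 0 higher and 3 lower of 8, smooth muscle and pericyte 2 higher and 3 lower of 8, and neuronal and glial 2 lower of 2 tested. Of 4 atrial genes tested, Nppa was higher and Dkk3 lower. The part of these lists in the channel differences was not tested.

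To set the channels beside the muscle content of the same library, the mean log2(CPM + 1) of the 12 cardiomyocyte genes was subtracted from each member. That mean itself differed by -0.79 between MI 24 h and sham. The share of all genes whose libraries separate on this scale is not given here, for this or any other comparison. On this relative scale, 7 members were lower at 24 h in every library than in every sham library. The differences were -2.33 for Kcnj3, -1.94 for Kcnd2, -1.82 for Kcnip2, -1.57 for Kcnh2, -1.02 for Kcnj11, -0.79 for Kcnj2 and -0.61 for Kcnq1. For each, the exact two-sided permutation test of 4 against 3 libraries gave p = 0.057, the smallest this design allows, so none could pass 0.05. Kcnd3 overlapped sham, with -7.81 ± 0.194 (SD, n = 4) against -7.66 ± 0.0147 (n = 3) and an exact permutation p = 0.51. Kcna5 stood at -6.95 ± 0.585 against -7.77 ± 0.229, a difference of 0.82 with overlapping libraries and an exact permutation p = 0.11.

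**Figure D2:**
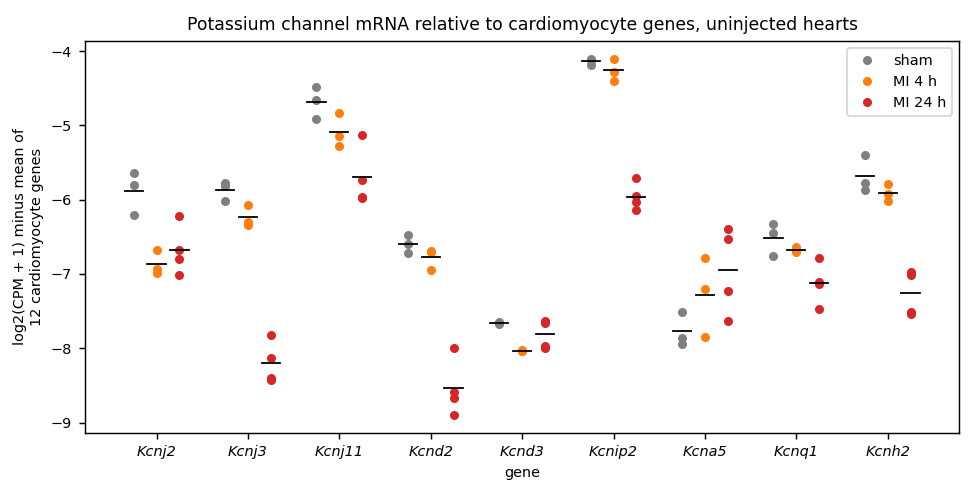
log2(CPM + 1) of each gene minus the mean log2(CPM + 1) of 12 cardiomyocyte genes in the same library, for sham (grey), MI 4 h (orange) and MI 24 h (red), with group means as lines. Kcnj3, Kcnd2, Kcnip2, Kcnh2 and, by a narrow margin, Kcnq1 at 24 h lie clear of both other groups, and Kcnd3 and Kcna5 overlap sham.

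Among the other potassium channel genes, 31 were tested in the uninjected hearts, with Kcnq1ot1 falling under the symbol rule although it is an antisense RNA. At 24 h 18 were lower and 7 higher, with a median of -0.52, where 3787 of all 12487 genes were lower and 4449 higher. The largest fall was that of Kcnv2, a silent subunit that modifies other voltage-gated channels, by 3.30 (SE 0.21, q = 4e-07). The background potassium channel Kcnk3 (TASK-1) fell by 2.09 (SE 0.28, q = 6.4e-05), and Kcnj12 (Kir2.2), which forms channels with Kir2.1, by 1.82 (SE 0.23, q = 3.7e-05). The largest rises were in 2 accessory subunits known to modify channels such as Kv7.1, the product of Kcnq1. Kcne4 was at 2.42, 1.53 and 1.69 CPM in sham and rose to 8.27, 13.0 and 7.20 CPM at 4 h and 23.0, 41.9, 13.3 and 15.5 CPM at 24 h. The groups did not overlap, and the log2 difference from sham was 1.84 at 4 h (SE 0.35, q = 0.02) and 2.96 at 24 h (SE 0.33, q = 1.5e-05). Kcne3 rose by 2.22 (SE 0.23, q = 9.9e-06) from values under 0.5 CPM. Kcnab2 rose by 1.33, Kcnq5 by 1.02 and Kcnj15 by 0.96 on the log2 scale.

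**Figure D3:**
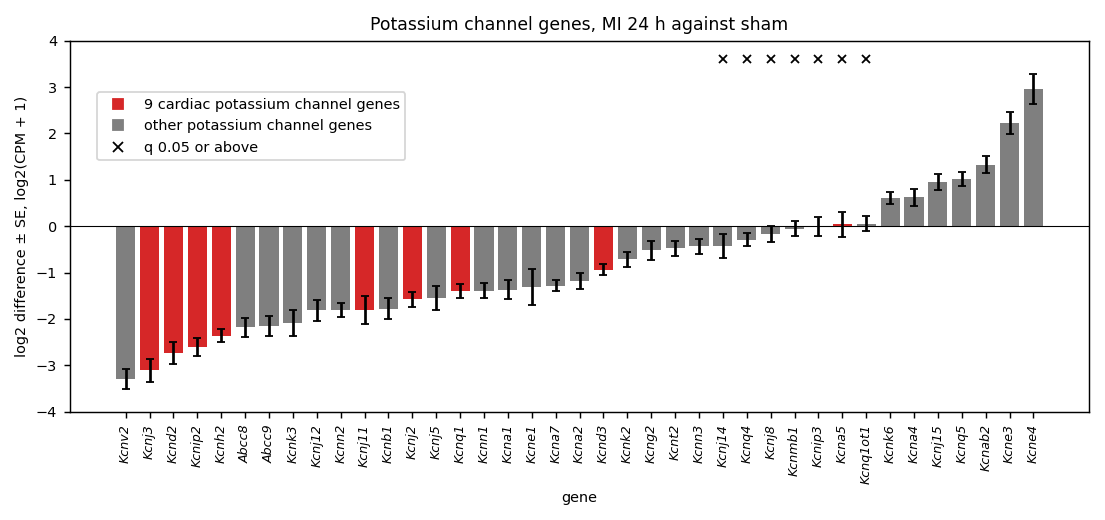
log2 difference (MI 24 h minus sham, with SE) of the 9 members (red) and the other potassium channel genes tested (grey, 1 not shown), in order of size. Crosses mark genes with q of 0.05 or above; Kcnv2 is lowest at -3.30 and Kcne4 highest at 2.96.

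Of 12 other ion transport genes of cardiomyocytes, 9 were lower at 24 h and none higher, with a median of -1.46. Pln, the phospholamban that restrains the calcium pump, fell by 2.44 (SE 0.28, q = 1.9e-05), and Cacna1c, the L-type calcium channel pore, by 2.00 (SE 0.30, q = 0.00012). The pacemaker channel Hcn2 fell by 1.95, the calcium pump Atp2a2 by 1.90 and the calcium channel subunit Cacnb2 by 1.67 on the log2 scale. Of 16 genes for transcription factors and scaffolds known to act on these channels, 9 were lower and 1 higher. Etv1 fell by 1.62, Fhl2 by 1.5, Irx4 by 1.49, Mef2a by 1.10 and Tbx5 by 1.05 on the log2 scale, and Cav3, a caveolin of muscle, rose by 0.84 (SE 0.15, q = 0.0004). At 4 h none of these 28 genes was called.

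The Luc-injected hearts were compared with the 2 sham-operated mice at 4, 24 and 48 h. These comparisons share both sham libraries, which differed from each other for several members. At 4 h no member was called in the limma test, 2 had an unadjusted p under 0.05, and 0.295% of all 12555 genes were called lower. At 24 h 5 members were lower, where 8.79% of all genes were, and 1 was higher, where 25.3% were. At 48 h 6 members were lower and none higher, where 16.4% of all genes were lower. Median-ratio rescaling shifted the median of all genes by -0.17 at 24 h and moved the lower calls there from 1103 of 4275 to 2014 of 4318, and it left all 6 member calls and their directions in place. The median member difference was -0.31 at 4 h, -0.61 at 24 h and -1.14 at 48 h.

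**Figure D4:**
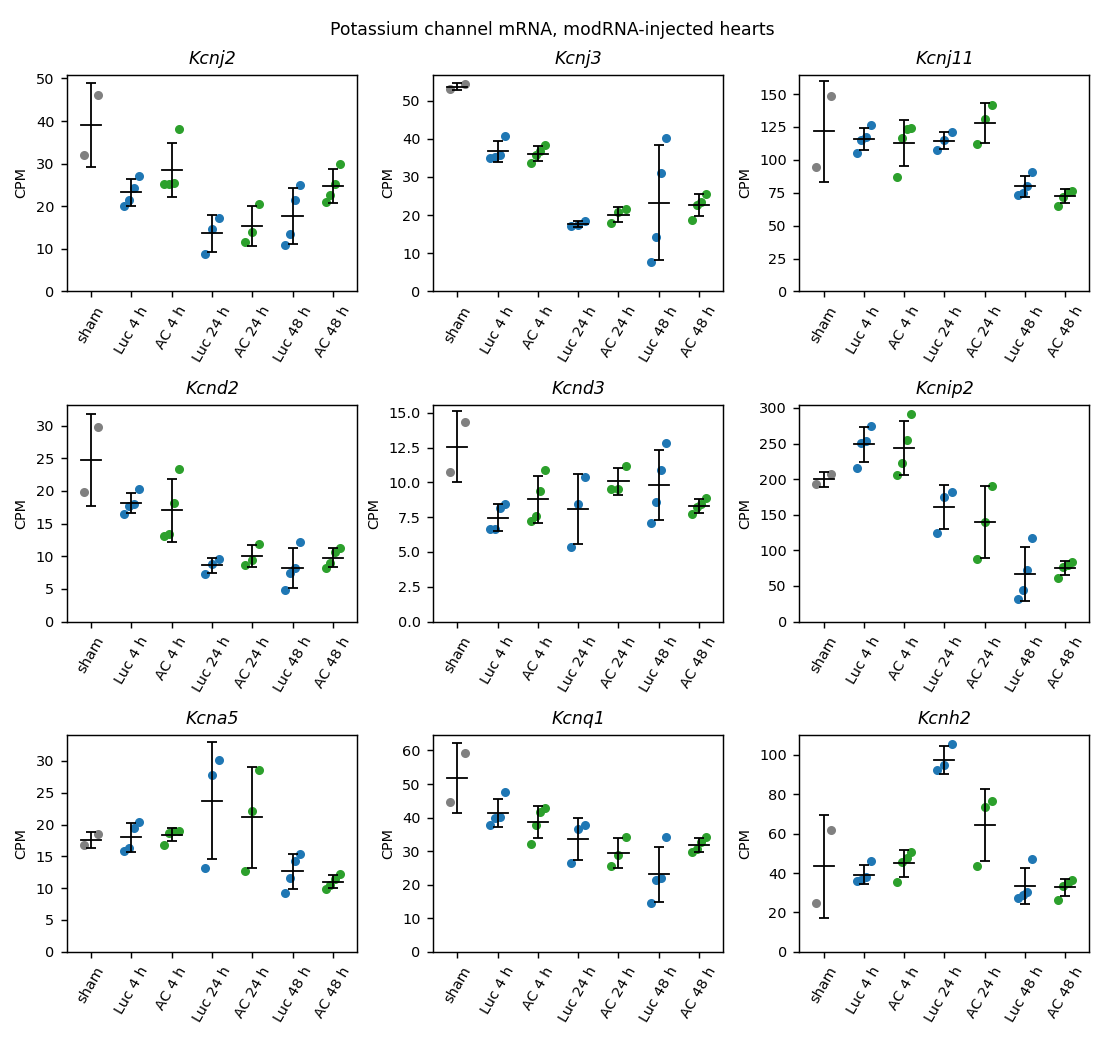
CPM of each potassium channel gene in each library of the injected table (points) with the group mean and SD (bars), for 2 sham (grey) and the Luc (blue) and AC (green) groups at 4, 24 and 48 h. Kcnh2 in Luc 24 h lies between 92.3 and 106 CPM, above every other library; Kcnj3 in Luc 48 h spreads from 7.59 to 40.2 CPM.

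Kcnh2 took the opposite direction from the uninjected hearts at 24 h. Its values were 25.03 and 61.9 CPM in sham, 46.2, 36.3, 35.9 and 37.9 CPM in Luc 4 h, 92.3, 94.9 and 106 CPM in Luc 24 h, and 27.6, 30.4, 29.0 and 47.0 CPM in Luc 48 h. Only Luc 24 h left the range of the sham pair, upward. Kcnh2 rose by 1.28 at 24 h (SE 0.29, q = 0.0016), to 225% ± 136 of sham, and differed by -0.02 at 4 h and -0.27 at 48 h (q = 0.98 and 0.49). Without sham replicate 1 the 24 h difference was 0.65 (q = 0.14), and without sham replicate 2 the 48 h difference turned to 0.37 (q = 0.36). Without sham replicate 1 the 48 h difference was -0.90 and was called (q = 0.032). In these 24 h libraries the cardiomyocyte sum was 79286 to 99910 CPM against 62361 to 64220 CPM in sham, and 5 of 6 atrial genes were higher. On the scale relative to the cardiomyocyte genes, the Luc 24 h libraries lay above both sham libraries, with -5.43 ± 0.0778 (SD, n = 3) against -6.24 ± 0.920 (n = 2). The margin was narrow for sham replicate 2, at -5.59 against -5.51 in Luc 24 h library D, while sham replicate 1 was at -6.89. The part of tissue content in this rise was not tested. The difference between the tables was not tested either.

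The inward rectifiers Kcnj2 and Kcnj3 were lower at both later times. Kcnj3 was at 54.2 and 53.1 CPM in sham, 35.2, 35.8, 40.8 and 34.9 CPM in Luc 4 h, 18.5, 17.4 and 17.1 CPM in Luc 24 h, and 14.2, 31.1, 7.59 and 40.2 CPM in Luc 48 h. Every Luc library was under both sham libraries, with little spread at 24 h and a wide one at 48 h. Kcnj3 fell by 1.55 at 24 h (SE 0.37, q = 0.0027), to 32.9% ± 1.5 of sham, and by 1.42 at 48 h (SE 0.35, q = 0.0039), to 43.4% ± 28.0. Fitted with Luc 48 h and sham alone, the 48 h difference missed the threshold (q = 0.10). The 4 h difference was -0.54 (SE 0.35, q = 0.51), which was called when only Luc 4 h and sham were fitted (q = 0.038). Several atrial markers rose in the same groups, and their part in the Kcnj3 values was not tested. Kcnj5 also fell at 24 h, by 1.58 (SE 0.29, q = 0.0003), and at 48 h, by 1.01 (SE 0.27, q = 0.008).

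Kcnj2 was at 32.0 and 46.0 CPM in sham, between 20.1 and 27.2 CPM in Luc 4 h, 17.3, 14.6 and 8.86 CPM in Luc 24 h, and 10.9, 21.5, 13.5 and 25.1 CPM in Luc 48 h. All Luc libraries were below the sham pair. Kcnj2 fell by 1.48 at 24 h (SE 0.30, q = 0.0008) and by 1.14 at 48 h (SE 0.29, q = 0.0047), and the 48 h call was lost without sham replicate 2 (log2 difference -0.89, q = 0.083). The 4 h difference of -0.71 (SE 0.29) was not called (q = 0.27). Kcnj11 was at 94.7 and 149 CPM in sham, 105 to 126 CPM at 4 h, 108 to 121 CPM at 24 h and 73.6, 74.9, 79.9 and 90.7 CPM at 48 h. It stayed within the sham range until 24 h and lay below it at 48 h. The fall of 0.57 at 48 h (SE 0.17, q = 0.012) was -0.25 without sham replicate 2 (q = 0.35), and fitted with the compared groups alone it was not called (q = 0.12).

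Of the transient outward genes, Kcnd2 was called at 24 and 48 h, Kcnip2 at 48 h and Kcnd3 at 24 h, and no test compared these genes or times. Kcnd2 was at 19.8 and 29.8 CPM in sham, 16.5, 20.2, 17.97 and 17.7 CPM in Luc 4 h, 7.33, 9.64 and 8.86 CPM in Luc 24 h, and 7.41, 8.18, 4.87 and 12.2 CPM in Luc 48 h. The later groups lay clear of sham. Kcnd2 fell by 1.40 at 24 h (SE 0.26, q = 0.00039), to 34.7% ± 11.0 of sham, and by 1.52 at 48 h (SE 0.25, q = 0.00013), to 33.0% ± 15.5.

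Kcnip2 was at 207 and 193 CPM in sham, 251, 253, 216 and 275 CPM in Luc 4 h, 125, 175 and 182 CPM in Luc 24 h, and 31.5, 72.0, 44.8 and 118 CPM in Luc 48 h. The 4 h libraries lay above the sham pair and the later ones below it. Only the 48 h difference was called, a fall by 1.74 (SE 0.33, q = 0.00053), to 33.3% ± 19.1 of sham, and the values at 4 and 24 h were 0.31 (q = 0.71) and -0.33 (q = 0.49). Kcnd3 was at 10.8 and 14.3 CPM in sham and between 5.37 and 10.4 CPM in Luc 24 h. Its fall of 0.61 at 24 h (SE 0.23, q = 0.044) was near the threshold, and leaving out 1 library ended the call for 9 of 24, with -0.42 (q = 0.28) without sham replicate 2, -0.80 (q = 0.067) without sham replicate 1 and -0.38 (q = 0.22) without Luc 24 h library D. At 4 and 48 h its differences were -0.67 (q = 0.14) and -0.34 (q = 0.25).

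Of the other delayed rectifiers, Kcnq1 was at 44.5 and 59.2 CPM in sham, 37.8 to 47.5 CPM at 4 h, 26.3, 36.5 and 37.8 CPM at 24 h and 21.5, 22.1, 14.5 and 34.2 CPM at 48 h. The later groups lay below the sham pair. Kcnq1 fell by 0.62 at 24 h (SE 0.23, q = 0.044), a call that was lost without any 1 of 11 of the 24 libraries, and by 1.18 at 48 h (SE 0.22, q = 0.00044), to 44.5% ± 18.1 of sham. Without sham replicate 1, 3 members were called at 24 h in place of 6. The Kcnq1 difference at 24 h was -0.46 without Luc 24 h library A (q = 0.17), -0.82 without sham replicate 1 (q = 0.066) and -0.42 without sham replicate 2 (q = 0.29). With the compared groups alone neither gene was called, with q = 0.079 for Kcnq1 and 0.14 for Kcnd3. Kcna5 was not called at any time, with sham at 16.7 and 18.5 CPM and Luc 24 h at 30.2, 27.8 and 13.2 CPM. Its difference was 0.33 at 24 h (q = 0.38) and became 0.69 without Luc 24 h library D (q = 0.047).

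In the Luc hearts, 3172 of all 12555 genes were called higher and 1103 lower at 24 h. At 48 h 1714 were called higher and 2060 lower. Other potassium channel genes counted 6 higher and 5 lower of 29 tested at 24 h, and 4 higher and 10 lower at 48 h. None was called at 4 h, where their median was 0.01. Of these, Kcnv2 had the largest fall and Kcne4 the largest rise at both times. Kcnv2 fell by 2.32 at 24 h (SE 0.33, q = 2e-05) and fell by 2.89 at 48 h (SE 0.31, q = 1.4e-06). Kcne4 rose by 2.08 at 24 h (SE 0.45, q = 0.0013) and by 1.66 at 48 h (SE 0.43, q = 0.0054). Kcnj12 rose at 24 h by 1.13 (SE 0.27, q = 0.0028), with 59.7 ± 7.33 CPM (SD, n = 3) against 27.0 ± 7.45 CPM (n = 2) in sham. Kcnn3 rose by 1.62 and Kcnj15 by 1.08 at 24 h, and Kcna7 fell by 1.35 and Abcc9 by 1.10 at 48 h on the log2 scale. Of the ion transport genes, 1 was higher and 4 lower at 24 h and 4 lower at 48 h, among them Cacnb2, which fell by 1.19 at 24 h. Of the 16 regulators, 7 were higher and 1 lower at 24 h, with Cav3 rising by 1.53 and Irx3 by 1.47, and 2 were higher and 2 lower at 48 h.

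Marker lists moved with these groups too. In Luc 48 h the cardiomyocyte sum was 42136 to 57805 CPM against 62361 to 64220 CPM in sham, with 2 of 12 genes lower, and all 10 neutrophil and monocyte genes were higher, with a sum of 146 to 537 CPM against 4.26 to 26.4 CPM. At 24 h that sum was 62.4 to 122 CPM, with 8 of 10 genes higher, and 3 of 12 cardiomyocyte genes were higher. Fibroblast genes counted 3 higher of 8 at 24 h and 3 at 48 h, none lower. Macrophage genes counted 2 higher and 1 lower of 8 at 24 h and 3 higher at 48 h, and smooth muscle and pericyte genes 3 higher and 1 lower of 8 at 24 h and 2 higher and 1 lower at 48 h. Endothelial genes counted 1 higher and 1 lower of 8 at 24 h and none at 48 h in the limma test. Of 6 atrial genes 3 were higher at 48 h, with sums of 545 to 1188 CPM against 75.3 to 132 CPM in sham. The part of these lists in the channel differences was not tested. On the scale relative to the cardiomyocyte genes, Kcnj3, Kcnd2, Kcnip2 and Kcnq1 lay below both sham libraries at 24 h and at 48 h. Kcnj2, Kcnj11 and Kcnd3 did so at 24 h, while Kcnj2, Kcnj11, Kcnd3, Kcna5 and Kcnh2 overlapped sham at 48 h. The cardiomyocyte mean itself differed from sham by 0.47 at 24 h and by -0.33 at 48 h. Kcnj11 at 24 h was barely separated, with -5.019 in Luc 24 h library A against -5.012 in sham replicate 1. Before the subtraction its 24 h difference was -0.05 (q = 0.84).

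**Figure D5:**
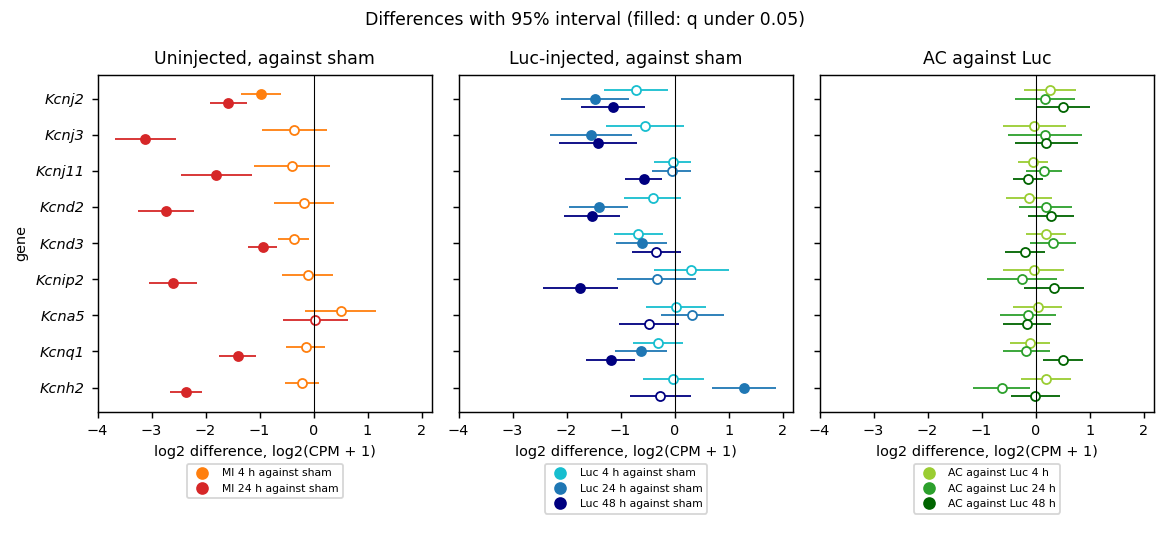
log2 difference of each gene with its 95% interval from the limma fit, for uninjected hearts against sham, Luc-injected hearts against sham and AC against Luc. Filled points have q under 0.05; in the uninjected hearts 8 genes are filled at 24 h and 1 at 4 h, and no AC point is filled.

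Whether AC modRNA changed the channels was asked by comparing AC with Luc hearts at the same time, which keeps each comparison within 1 set of libraries. No member was called at 4, 24 or 48 h in the limma test, and the numbers with an unadjusted p under 0.05 were 0, 1 and 2. Of all genes, 0.00796% were called at 4 h, 0.00796% at 24 h and 15.3% at 48 h, where median-ratio rescaling shifted the median by -0.12 and changed the lower calls from 410 of 1926 to 774 of 1619. At 48 h Kcnq1 was at 32.6, 29.9, 30.6 and 34.3 CPM in AC hearts against 21.5, 22.1, 14.5 and 34.2 CPM in Luc hearts. The AC libraries were close together, and Luc replicate 4 alone reached their upper end. The log2 difference was 0.51 (SE 0.18, q = 0.06). Kcnj2 was at 22.6, 25.2, 30.0 and 20.9 CPM in AC against 10.9, 21.5, 13.5 and 25.1 CPM in Luc, a difference of 0.51 (SE 0.23, q = 0.14) with overlapping libraries.

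Without Luc 48 h replicate 4, 3 members were called higher in AC hearts, Kcnq1 with 0.71 (q = 0.0038), Kcnj2 with 0.70 (q = 0.037) and Kcnip2 with 0.67 (q = 0.044). Over the fits with 1 library left out, all genes called in this comparison ranged from 812 to 2890. The number that belongs to the fit without Luc 48 h replicate 4 is not given here. For Kcnip2, AC 48 h was at 76.6, 61.9, 78.8 and 84.0 CPM, within the Luc range of 31.5 to 118 CPM, and the difference with all libraries was 0.34 (q = 0.42). The 95% intervals of the differences at 48 h were 0.13 to 0.88 for Kcnq1, -0.39 to 0.79 for Kcnj3, -0.14 to 0.71 for Kcnd2 and -0.46 to 0.45 for Kcnh2. The last 3 hold 0 and differences of either sign. In the AC hearts at 48 h, 5 of 8 fibroblast genes were higher and 3 of 12 cardiomyocyte genes lower than in Luc hearts, with fibroblast sums of 2114 to 3588 CPM against 907 to 1741 CPM. The atrial sums did not overlap either, at 1242 to 2982 CPM in AC against 545 to 1188 CPM in Luc, although of the 6 atrial genes only Nppa was called, with a rise of 1.07 (SE 0.33, q = 0.033). Macrophage genes counted 3 higher and 2 lower of 8, neutrophil and monocyte genes 1 higher and 2 lower of 10, and smooth muscle and pericyte genes 2 higher of 8. The part of these lists in the channel and connexin differences was not tested. On the scale relative to the cardiomyocyte genes, whose mean itself differed by -0.39 in AC, all 9 members had positive differences at 48 h, from 0.20 for Kcnd3 to 0.90 for Kcnj2. Before the subtraction 5 members were positive and 4 negative, and the median over all genes tested was 0.14. The lowest member was Kcnd3 at -0.19, so the subtraction alone made all 9 positive. On the relative scale, Kcnj2 stood at -6.19 ± 0.341 in AC against -7.09 ± 0.640 in Luc (SD, n = 4 each) and Kcnq1 at -5.82 ± 0.138 against -6.72 ± 0.519. For both, every AC library lay above every Luc library, the other 7 members overlapped, and no test was run on this scale here.

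The levels in AC hearts overlapped those in Luc hearts of the same time for every member except Kcnh2 at 24 h. Kcnd2 in AC hearts was at 13.1, 23.4, 13.4 and 18.2 CPM at 4 h, 9.47, 8.64 and 11.9 CPM at 24 h, and 8.28, 10.6, 8.95 and 11.3 CPM at 48 h. Kcnj3 was between 33.7 and 38.3 CPM at 4 h, 20.8, 21.6 and 17.999 CPM at 24 h, and 22.6, 18.7, 25.5 and 23.3 CPM at 48 h, where the Luc libraries had spread from 7.59 to 40.2 CPM. Kcnip2 was at 291, 206, 255 and 223 CPM at 4 h and at 191, 88.3 and 141 CPM at 24 h, where both arms overlapped. Kcnj11, the ATP-sensitive pore, was at 112, 131 and 142 CPM at 24 h and between 64.9 and 76.5 CPM at 48 h. Kcna5 was at 28.6, 22.1 and 12.7 CPM at 24 h, with a low library D as in the Luc arm, where library D was at 13.2 CPM.

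At 24 h Kcnh2 was at 73.4, 43.6 and 76.8 CPM in AC hearts, all below the Luc range of 92.3 to 106 CPM. The log2 difference was -0.63 (SE 0.26), with a 95% interval from -1.16 to -0.10. In the limma fit its unadjusted p was 0.022 and it was not called after adjustment (q = 0.99). The other 8 differences at 24 h lay between -0.25 for Kcnip2 and 0.33 for Kcnd3, all with overlapping libraries. At 4 h the member differences lay between -0.12 for Kcnd2 and 0.27 for Kcnj2, and the groups overlapped for all 9 genes. The difference of the AC effect between times was called for no member in the limma fit, with 1 member under an unadjusted p of 0.05 for each of the 3 pairs of times. Of all genes, 0.00796% were called for 24 h against 4 h, 3.35% for 48 h against 4 h and 2.56% for 48 h against 24 h. Median-ratio rescaling changed the lower calls from 59 of 421 to 174 of 449 for 48 h against 4 h and from 42 of 322 to 125 of 292 for 48 h against 24 h. Without Luc 48 h replicate 4, Kcnq1 alone was called for each of the pairs with 48 h. At 48 h 1516 of all 12555 genes were called higher and 410 lower in AC than in Luc hearts. Of the other potassium channel genes, 5 of 29 were higher and none lower in AC than in Luc hearts at 48 h, and none was called at 4 or 24 h. Kcnab2, an accessory subunit of voltage-gated channels, rose by 0.91 (SE 0.23, q = 0.011) and the stretch-activated Kcnk2 by 0.72 (SE 0.18, q = 0.0099), from 1.89 ± 0.495 CPM (SD, n = 4) in Luc to 3.73 ± 0.197 CPM (n = 4) in AC. The connexin genes Gja5 and Gja1 rose by 1.17 (SE 0.37, q = 0.035) and 0.72 (SE 0.24, q = 0.045), and Atp2a2 fell by 0.44 (SE 0.14, q = 0.036).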

How the data were processed

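Gene expression was measured by RNA sequencing of mouse LV in 34 libraries, 1 per heart. For the uninjected hearts, the authors aligned reads with STAR to mm10, assigned them to RefSeq genes by Partek's expectation-maximization counting and applied TMM scaling. The deposited values are CPM. For the injected hearts the labels name mm10 only, and the deposited values are CPM with 1 added, which was subtracted. Their aligner and counting are not given in the sources used here. Groups came from the sample labels. Of the values under 1 CPM, 82.7% and 84.7% were whole multiples of 1 read within 0.02, too few to recover counts.

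Differences were tested with limma 3.58.1 in R 4.3.3 (trend) on log2(CPM + 1), per table with all groups in 1 model, for the 12487 and 12555 genes that averaged 1 CPM or more. The q value is Benjamini-Hochberg adjusted over all of them, with a threshold of 0.05. Exact permutation tests used scipy 1.17.1. The script was tested on simulated data. Alternatives were a pseudocount of 0.1, no filter or 5 CPM, compared groups alone, no trend, median-ratio rescaling, a replicate block and each library left out. Alternatives for the scale relative to cardiomyocyte genes were chosen after seeing the data. The members and lists were chosen with earlier results of these data known. Genes other than members were named by rule, up to 5 largest called rises and falls per list, and Kcnj5 in the uninjected hearts and Kcne1 were named after their values were seen. A few genes that the rule names are not reported here.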

Additional observations from a re-analysis of the deposited data

Results flagged for a closer look

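The 8 members below differed between the MI times in the uninjected hearts. Their log2 change from sham at 24 h minus that at 4 h, tested as the contrast of both times, was -2.76 for Kcnj3, -2.56 for Kcnd2, -2.49 for Kcnip2, -2.14 for Kcnh2, -1.41 for Kcnj11, -1.25 for Kcnq1, -0.61 for Kcnj2 and -0.58 for Kcnd3. Sham cancels in this contrast, so it repeats the comparison of MI 24 h with MI 4 h above. There 26.7% of all 12487 genes tested were called lower.

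In each of the 5 groups of 4 libraries, each member was checked for a library far from the rest, which made 45 checks. The members share their libraries, so the checks are not independent. In 4 checks a library lay far from the others, where chance gives about 1 in 20. These were Kcnj2 at 38.0 CPM in AC 4 h replicate 2, Kcna5 at 16.8 CPM in AC 4 h replicate 1, Kcnj3 at 40.8 CPM in Luc 4 h replicate 3 and Kcnh2 at 47.0 CPM in Luc 48 h replicate 4.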

How the results depend on the processing

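All 29 member differences called kept their sign in each of the 655 alternative fits of them, and 622 of these fits kept the call. Many of these fits could not turn a sign. Leaving out a library outside the compared groups leaves the log2 difference itself unchanged, as do the filters and the fit without trend. When single libraries were left out, the members called stayed at 8 for MI 24 h against sham and for MI 24 h against MI 4 h, and ranged from 0 to 1 for MI 4 h against sham, 3 to 6 for Luc 24 h, 4 to 7 for Luc 48 h and 0 to 3 for AC against Luc at 48 h. For the AC effect between times they ranged from 0 to 1 for 48 h minus 4 h and from 0 to 1 for 48 h minus 24 h. Fitting Luc 4 h and sham alone called 1 member in place of 0. On the scale relative to the cardiomyocyte genes, an alternative chosen after seeing the data, a pseudocount of 0.1, gave 8 members in place of 7 below sham.

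The replicate letters or numbers were not used as pairing in the main fits. The correlation of same-numbered libraries ranged from -0.26 to 0.55. For AC and Luc, 2 of 8 libraries at 4 h, 1 of 6 at 24 h and 4 of 6 at 48 h were closest to their own number. These values do not settle whether the numbers mark something shared. With the replicate block, the MI 4 h call on Kcnj2 was lost (0 members, log2 difference -0.88, q = 0.068), and all genes called fell from 296 to 117 there and from 1926 to 977 for AC against Luc at 48 h. For Luc 24 h against sham the numbers share nothing, and no block could be fitted. Other counts of all genes that moved by over 1.5 times were 715 for MI 4 h, 580 in place of 194 for Luc 4 h and 1504 in place of 3774 for Luc 48 h with the compared groups alone, and 1182 for AC against Luc at 48 h with 5 CPM. Without the filter, 4 genes in place of 1 were called for AC against Luc at 4 h and 6 in place of 1 at 24 h. For the AC effect, 48 h minus 4 h moved from 421 to between 182 and 235 with a pseudocount of 0.1, 5 CPM or the block, and 48 h minus 24 h from 322 to between 119 and 205 with these and to 495 without the filter.

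Uncalled differences near 0 turned sign. Kcna5 in MI 24 h was -0.01 with median-ratio rescaling, -0.18 with the block and -0.10 to 0.28 with libraries left out. Leaving out libraries gave, for Luc 4 h, Kcnj11 from -0.36 to 0.29, Kcna5 from -0.05 to 0.09 and Kcnh2 from -0.66 to 0.62, for Luc 24 h Kcnj11 from -0.38 to 0.27, and for Luc 48 h Kcnh2 from -0.90 to 0.37. For AC against Luc it gave at 4 h Kcnj3 from -0.05 to 0.03, Kcnj11 from -0.10 to 0.07, Kcnip2 from -0.13 to 0.04 and Kcna5 from -0.02 to 0.10, at 24 h Kcnj2 from -0.08 to 0.36, Kcnip2 from -0.50 to 0.05 and Kcna5 from -0.51 to 0.16, and at 48 h Kcnj3 from -0.22 to 0.54 and Kcnh2 from -0.09 to 0.16. The cause was not tested.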

Other observations

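Kcne1, the accessory subunit that slows the channel formed by the Kcnq1 product, was chosen after its values were seen. It was at 3.39 ± 0.782 CPM (SD, n = 3) in uninjected sham and 0.765 ± 0.280 CPM (n = 4) at 24 h, where it fell by 1.31 on the log2 scale (SE 0.38, q = 0.01). At 4 h its libraries were at 8.99, 1.96 and 1.55 CPM.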
